A study of Caenorhabditis elegans with 30 samples.

Results

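Transcripts of 27 autophagy genes and 21 genes of the vacuolar proton pump (V-ATPase) were followed through starvation-induced arrest of first-stage (L1) larvae of the nematode Caenorhabditis elegans. The 48 genes were chosen by name, with earlier results of these data known. The choice took in 28 named genes of the autophagy steps and the pump, and every gene whose public name is vha followed by a number. They were found among 46911 worm genes in the deposited count table, and all 48 passed the filter on low counts that left 15508 genes for testing. Strain LRB444, called irld here, carries the alleles irld-39(duk1) and irld-52(duk17) together, and N2 is the wild-type laboratory strain it was set against. Both strains hatched without food in S-basal medium at 20C, so starvation was common to all groups, including the earliest. Arrest had lasted 6, 12, 24, 48 or 72 h when RNA was taken. These times were 18, 24, 36, 60 and 84 h after bleaching, the hours that the sample titles carry. With 3 biological replicates for each strain and time there were 30 libraries of polyA RNA from whole larvae, each from a large pool of animals. The only double-mutant strain in these data is LRB444, and the labels do not say which cells need either gene.

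Autophagy encloses cytoplasm in a double membrane, the autophagosome, which then fuses with lysosomes. The UNC-51 kinase complex starts the process, the VPS-34 lipid kinase complex marks the site, ATG-9, ATG-2 and the WIPI-type proteins bring lipid, and 2 ubiquitin-like conjugation systems attach LGG proteins to the membrane. The V-ATPase acidifies the lysosome: its soluble V1 part splits ATP and its membrane V0 part carries protons. Starved L1 larvae are known to need autophagy to survive arrest. HLH-30, the worm relative of TFEB, is known as a transcription factor of autophagy and lysosome genes.

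The libraries held between 7563687 and 19815884 counts assigned to worm genes, with a median of 9650171. Levels below are in CPM, the read count of a gene as a rate of the library's total, with the total scaled by TMM, a method that sets the libraries level on the bulk of genes. All tests of single genes are edgeR quasi-likelihood F-tests with Benjamini-Hochberg adjustment over the 15508 genes, and a gene is called where the adjusted p is under 0.05. Errors beside means are SD over 3 libraries, and errors beside log2 fold changes are standard errors of the fit. The labels call the replicates biological, without saying from how many cultures they came. Markers of adult yolk summed to group means of 4.86 to 10.8 CPM and sperm markers to 1.24 to 2.68 CPM, with msp-10 at 0 in the 6 h and 72 h means. Markers of early embryos and oocytes were higher, with group means of 43.4 to 100.4 CPM, and germline markers summed to 26.1 to 52.5 CPM. The embryo and oocyte sum varied between replicates, for example 24.9, 99.8 and 176 CPM in N2 at 24 h. The source of this RNA was not tested. Markers of body wall and pharyngeal muscle together summed to at least 14199 CPM in every group mean.

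By 72 h the autophagy genes and the pump genes had moved apart. In irld larvae, 13 of the 27 autophagy genes were higher and 2 lower at 72 h than at 6 h, and in N2 larvae 14 were higher and 2 lower. Of the 21 pump genes none was higher, 12 were lower in irld and 13 were lower in N2. The count of 0 higher in irld depended on the fit, since 1 pump gene, unc-32, was called higher there with DESeq2-type size factors, upper quartile scaling, DESeq2 or the replicate number as a block. For comparison, 46.6% of all tested genes were called in irld (20.6% higher, 26% lower) and 51.1% in N2 (23.1% higher, 27.9% lower). The median log2 change of the autophagy genes was 0.36 in irld and 0.36 in N2, that of the pump genes −0.79 in irld and −0.81 in N2, and that of all tested genes −0.13 in irld and −0.11 in N2. All 13 autophagy genes that rose in irld also rose in N2, where they made up 92.9% of those that rose, and all 12 pump genes that fell in irld also fell in N2 (92.3% of those there). Only atg-4.2 among the higher genes and vha-16 among the lower ones were called in N2 alone, and neither difference between the strains passed its own test.

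The gap between the groups of genes held under every scaling tried, but the direction of the autophagy genes did not. Relative to the median gene, the pump genes' median lay 0.64 to 0.82 lower and the autophagy genes' median 0.45 to 0.72 higher at 72 h under TMM, DESeq2-type size factors, upper quartiles, library size alone and the ERCC spike-in RNAs, with 19 of the 21 pump genes under the median gene in each. With library size alone, which moved the median gene to −0.59 in irld and −0.63 in N2, 8 autophagy genes were higher and 9 lower in irld, 6 higher and 8 lower in N2, and 18 pump genes were lower in irld and 20 in N2. With the spike-ins, which made up 0.305 to 4.04% of the worm counts and moved the median gene to −1.58 in irld and −0.57 in N2, no autophagy gene was higher and 1 was lower in irld, none was called in N2, and 9 pump genes were lower in irld and none in N2. Upper quartile scaling ended the calls of epg-8 in irld, of vha-1 in both strains and of vha-16 in N2. Without the filter on low counts those of atg-18 and vha-1 in both strains, epg-8 and atg-2 in irld and atg-4.2 and atg-7 in N2 were lost (adjusted p 0.0607 to 0.343 over both settings, vha-16 left out). That of vha-16 in N2 was lost there too. In N2 the V0 and accessory genes called lower went from 7 to 5 in each of these settings. All directions below are therefore relative to the bulk of the transcripts and on the TMM scale. In RNA of whole larvae, fewer cells of a type and less RNA per cell cannot be told apart.

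**Figure D1:**
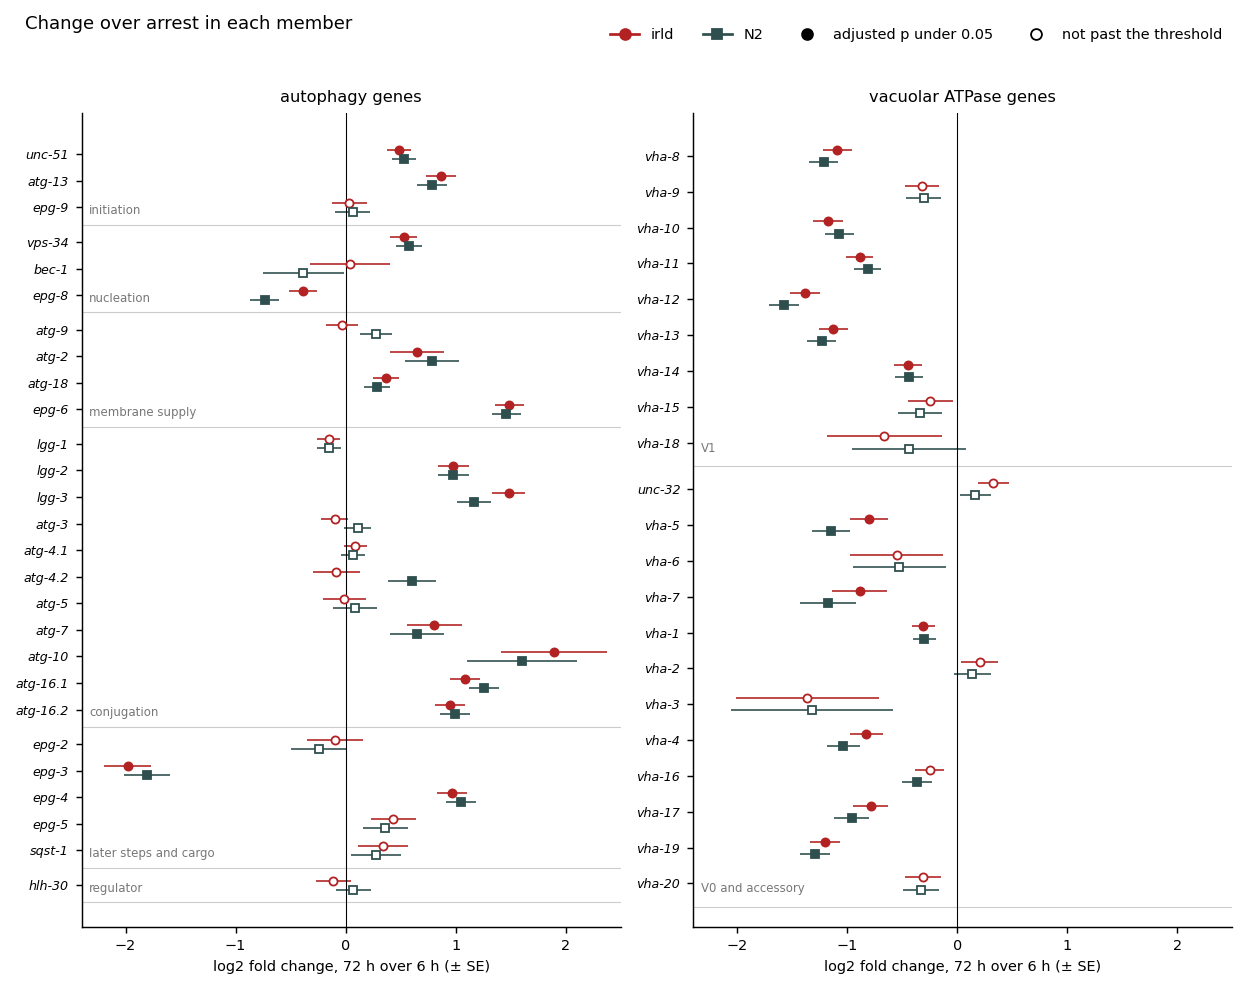
Log2 fold change from 6 h to 72 h of arrest for each of the 48 genes, with its standard error, in irld larvae (circles, upper of each pair) and N2 larvae (squares, lower), on the TMM scale and grouped by role. Filled symbols passed an adjusted p of 0.05. In irld 13 autophagy genes lie to the right of 0 and passed, against 14 in N2, and 12 pump genes lie to the left and passed in irld, against 13 in N2. With library size alone these counts became 8 against 6 and 18 against 20.

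The 72 h and 6 h libraries of a strain did not overlap for 15 autophagy genes that were higher in irld and 15 in N2, against 23.1% of all genes in irld and 27.1% in N2. They did not overlap for 13 pump genes that were lower in irld and 18 in N2, against 28.9% of all genes in irld and 34.5% in N2. In the test of any change over the 5 times, 25 of the 48 genes were called in irld and 27 in N2, against 43.1% of all genes in irld and 49.6% in N2.

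The changes built up over the 5 times. At 12 h 5 of the 48 genes were called in irld and 7 in N2, when 4.34% of all genes were called in irld (1.92% higher, 2.42% lower) and 6.21% in N2 (2.66% higher, 3.55% lower). The only autophagy gene among them was atg-16.2, which was higher in both strains. The others were pump genes that were lower: vha-8, vha-10, vha-12 and vha-13 in both strains, and vha-4 and vha-11 in N2. At 24 h 5 autophagy genes were higher and 3 lower in irld, and 8 were higher and 3 lower in N2, while 12 pump genes were lower in irld and 13 in N2. Of all genes, 30.6% were called at that time in irld (14.1% higher, 16.5% lower) and 34.2% in N2 (15.9% higher, 18.3% lower). At 48 h 10 autophagy genes were higher in irld and 9 in N2, 3 were lower in each, and the same 15 pump genes were lower in both. The background was then 42% in irld (18.1% higher, 23.9% lower) and 45.6% in N2 (20.0% higher, 25.6% lower). The balance of these calls moved with the scaling. At 48 h 35.7% of the calls among the 48 genes were higher in irld and 33.3% in N2, against 46.2% in irld and 48.1% in N2 with upper quartile scaling, 15.6% in irld and 14.7% in N2 with library size alone, and 0.0% in both with the spike-ins. At 24 h the share was 25% in irld and 33.3% in N2, and 8.33% in irld and 17.2% in N2 with library size alone, and 36.8% in irld with upper quartile scaling. At 12 h upper quartile scaling called 2 genes in irld, both of them higher, and 5 in N2, 2 of them higher.

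Of the initiation complex, the kinase and ATG-13 rose and EPG-9 was not called. UNC-51 is the worm Atg1 kinase. Its transcript had 221, 254 and 257 CPM at 72 h in irld, against 172, 170.0 and 182 CPM at 6 h. N2 libraries had 274, 249 and 270.2 CPM at 72 h, against 193, 179 and 177 CPM at 6 h. The times did not overlap in either strain, and the rise was 0.48 ± 0.11 log2 units in irld (adjusted p = 8.12e-04) and 0.53 ± 0.11 in N2 (adjusted p = 2.84e-04). The transcript of atg-13, which encodes a regulatory subunit of that kinase, rose at each successive time and averaged 49.7, 58.4, 62.9, 75.8 and 90.5 CPM at 6, 12, 24, 48 and 72 h in irld and 47.9, 54.5, 60.7, 66.7 and 82.4 CPM in N2. Its change at 72 h was 0.86 ± 0.14 in irld (adjusted p = 1.10e-05) and 0.78 ± 0.14 in N2 (adjusted p = 3.26e-05), and 9.04% of its exon length overlaps a gene on the opposite strand, so part of its counts may belong there. The gene for EPG-9, the Atg101-type subunit, had 62.2 ± 4.62 CPM at 72 h, against 60.9 ± 13.95 CPM at 6 h, in irld, and 64.8 ± 5.11 CPM, against 62.0 ± 4.82 CPM, in N2, a change that was not called in either (0.03 ± 0.16 in irld and 0.06 ± 0.16 in N2). With library size alone, the calls of unc-51 were lost (0.02 in irld and 0.00 in N2).

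The 3 genes of the nucleation complex went different ways. The catalytic subunit vps-34, a class III phosphatidylinositol 3-kinase, was already higher at 24 h, and was called at 48 h in irld alone. It had 136, 159 and 131 CPM at 72 h, against 97.3, 95.1 and 104 CPM at 6 h, in irld. In N2 it had 155, 116 and 126 CPM at 72 h, against 90.2, 91.7 and 84.5 CPM at 6 h. Every 72 h library lay above every 6 h library of its strain, and the change was 0.53 ± 0.12 in irld (adjusted p = 8.49e-04) and 0.58 ± 0.12 in N2 (adjusted p = 3.00e-04). With library size alone both calls of vps-34 were lost (0.06 in irld, adjusted p = 0.674, and 0.05 in N2, adjusted p = 0.743). A fall was seen instead for epg-8, which encodes the Atg14-type subunit that directs the complex to autophagy. It fell to 28.3, 27.1 and 29.3 CPM at 72 h in irld, against 38.2, 37.1 and 35.6 CPM at 6 h. The N2 values were 24.7, 24.4 and 20.3 CPM at 72 h, against 33.7, 40.99 and 40.9 CPM at 6 h. The fall was −0.39 ± 0.13 in irld (adjusted p = 0.0155) and −0.74 ± 0.13 in N2 (adjusted p = 4.31e-05), and in irld the call was lost without replicate 2 of 6 h (adjusted p = 0.0657) or of 72 h (adjusted p = 0.0508). The transcript of bec-1, the Beclin 1 gene, spread more widely, with 16.21, 15.1 and 24.5 CPM at 72 h in irld, against 10.3, 23.2 and 20.7 CPM at 6 h. For N2 the levels were 11.6, 15.6 and 12.8 CPM at 72 h, against 14.6, 16.101 and 21.8 CPM at 6 h. It was highest at 12 h in both strains (25.7 ± 8.91 CPM in irld and 26.5 ± 8.75 CPM in N2) and was not called at any single time. The test over all 5 times was passed in N2 (adjusted p = 0.0439) and not in irld (adjusted p = 0.583).

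Among the genes of membrane supply, epg-6 showed the largest fitted rise. EPG-6 and ATG-18 are both WIPI-type proteins that bind phosphatidylinositol 3-phosphate. The epg-6 transcript averaged 102, 113, 125, 186 and 286 CPM at 6, 12, 24, 48 and 72 h in irld and 98.2, 113, 125, 182 and 269.7 CPM in N2. In single libraries it reached 269, 285 and 305 CPM at 72 h in irld, against 82.8, 113 and 111 CPM at 6 h. The corresponding N2 levels were 282, 269 and 258 CPM, against 89.5, 101 and 104 CPM. The groups lay far apart, most of the rise fell after 24 h, and the change was 1.49 ± 0.13 in irld (adjusted p = 1.45e-09) and 1.46 ± 0.13 in N2 (adjusted p = 1.51e-09), a 2.80-fold rise in irld and 2.75-fold in N2. Its relative atg-18 changed less, with 356, 385 and 346 CPM at 72 h in irld, against 278, 282 and 287 CPM at 6 h. At 72 h N2 held 388, 364 and 354 CPM, against 276, 326 and 306 CPM at 6 h. Its libraries did not overlap either, with changes of 0.36 ± 0.12 in irld (adjusted p = 0.0143) and 0.28 ± 0.12 in N2 (adjusted p = 0.0468). That call was lost in irld without replicate 2 of 72 h (adjusted p = 0.0691) and in N2 without replicate 1 of 6 h or any replicate of 72 h (adjusted p 0.0645 to 0.148), and library size alone turned it to −0.11 in irld and −0.24 in N2.

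The count ratio of epg-6 to atg-18 within a library, which no scaling can alter, was 1.16 log2 units higher at 72 h than at 6 h on average over the strains (1.14 in irld, 1.17 in N2). An exact permutation test within strains gave a two-sided p of 0.005, the smallest that its 400 splits allow, and 0.01 after Benjamini-Hochberg adjustment over the 10 ratios tested in this way. All 10 ratios were chosen with earlier results of these data known, which limits what these p-values can say. ATG-2 is a lipid transfer protein. Its transcript had 407, 368 and 363 CPM at 72 h in irld, against 291, 225 and 212 CPM at 6 h. N2 larvae had 535, 305 and 322 CPM at 72 h, against 309.8, 232 and 134 CPM at 6 h. The irld libraries did not overlap, the N2 libraries did, and the changes were 0.65 ± 0.25 (adjusted p = 0.0342) in irld and 0.78 ± 0.25 (adjusted p = 0.0104) in N2. The atg-2 call was lost in irld without any library of the comparison except replicate 1 of 6 h (adjusted p 0.0552 to 0.0966), and in N2 without replicate 3 of 6 h (0.0514) or replicate 1 of 72 h (0.132). For atg-9, the gene of the one membrane-spanning core protein, the means stayed between 96.3 and 100.2 CPM over the 5 times in irld and 90.3 and 115 CPM in N2, and no change was called (−0.04 ± 0.14 at 72 h in irld and 0.27 ± 0.14 in N2). With upper quartile scaling it was called higher in N2 (0.38, adjusted p = 0.0222). With library size alone it was called lower in irld (−0.50, adjusted p = 0.00300).

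In the conjugation systems, the Atg8 family genes diverged. LGG-1 is the GABARAP-type and LGG-2 the LC3-type protein of the worm. The lgg-2 transcript had 669, 811 and 637 CPM at 72 h in irld, against 420.3, 297 and 358 CPM at 6 h. In N2 it stood at 698, 703 and 624 CPM at 72 h, against 361, 337 and 332 CPM at 6 h. Every 72 h library lay above every 6 h library, with changes of 0.98 ± 0.14 in irld (adjusted p = 2.88e-06) and 0.98 ± 0.14 in N2 (adjusted p = 2.30e-06). The lgg-1 transcript dipped instead, and averaged 1121, 1017, 845, 896 and 1008 CPM at 6, 12, 24, 48 and 72 h in irld and 1116, 1016, 848, 900.3 and 1005 CPM in N2. It was lower at 24 h (−0.41 ± 0.11 in irld, adjusted p = 0.00446, and −0.40 ± 0.11 in N2, adjusted p = 0.00462) and at 48 h, and was no longer called at 72 h (−0.15 ± 0.11 in irld and −0.15 ± 0.11 in N2). With library size alone it was called lower at 72 h as well (−0.62 in irld and −0.68 in N2). The count ratio of lgg-2 to lgg-1 was 1.13 log2 units higher at 72 h (1.14 in irld, 1.12 in N2; exact permutation p = 0.005, adjusted 0.01). Per kilobase of exon, lgg-2 made up 17.8%, 21.6%, 25.4%, 29.7% and 32.3% of the summed CPM of both genes at 6, 12, 24, 48 and 72 h in irld and 17.4%, 19.8%, 24.0%, 27.8% and 31.4% in N2.

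The genes that couple the Atg12 homolog LGG-3 mostly rose too. The lgg-3 transcript had 22.2, 24.8 and 22.1 CPM at 72 h in irld, against 9.41, 6.46 and 8.90 CPM at 6 h. N2 libraries had 20.6, 22.6 and 22.3 CPM at 72 h, against 9.24, 9.92 and 10.1 CPM at 6 h. Its libraries stood well apart, with changes of 1.48 ± 0.15 in irld (adjusted p = 2.26e-08) and 1.16 ± 0.15 in N2 (adjusted p = 6.58e-07). Both genes for ATG-16, which holds the conjugate on the membrane, were higher from 24 h onwards in both strains. The atg-16.2 transcript, alone among the autophagy genes, was called at 12 h, and averaged 65.9, 96.7, 119, 124 and 127 CPM at 6, 12, 24, 48 and 72 h in irld and 60.4, 91.0, 116, 108 and 120.5 CPM in N2. Its change at 12 h was already 0.55 ± 0.13 in irld (adjusted p = 0.0164) and 0.59 ± 0.13 in N2 (adjusted p = 0.00929), and at 72 h it was 0.94 ± 0.13 in irld and 0.99 ± 0.14 in N2. The atg-16.1 transcript rose at each successive time, with means of 18.2, 20.2, 24.8, 32.4 and 38.6 CPM in irld and 16.4, 21.05, 27.4, 32.3 and 39.2 CPM in N2, and a change at 72 h of 1.09 ± 0.13 in irld (adjusted p = 3.91e-07) and 1.25 ± 0.14 in N2 (adjusted p = 3.67e-08). The ratio of atg-16.2 to atg-16.1 changed by −0.21 log2 units between 6 h and 72 h (exact permutation p = 0.015, adjusted 0.0188) and overlapped between the times in irld. It lost its call without any of 6 of the 12 libraries, which were replicates 1 and 2 of 72 h in irld and all 72 h replicates and replicate 3 of 6 h in N2 (adjusted p 0.05 to 0.0938).

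The activating enzyme gene atg-7 had 78.5, 100.2 and 77.4 CPM at 72 h in irld, against 38.4, 59.4 and 48.8 CPM at 6 h. The N2 values were 90.4, 74.3 and 69.3 CPM at 72 h, against 49.8, 49.2 and 50.3 CPM at 6 h. Its groups did not overlap, and the rise was 0.81 ± 0.25 in irld (adjusted p = 0.00926) and 0.65 ± 0.25 in N2 (adjusted p = 0.0307), but the call was lost in irld without replicate 1 of 6 h (0.0516) or replicate 2 of 72 h (0.0537), and in N2 without any replicate of 6 h (0.0505 to 0.0606) or replicate 1 of 72 h (0.123). The carrier enzyme gene atg-10 was close to the limit of detection, with 1.30, 2.63 and 2.03 CPM at 72 h in irld, against 0.743, 0.231 and 0.611 CPM at 6 h. For N2 the levels were 1.96, 1.58 and 1.17 CPM at 72 h, against 0.339, 0.348 and 0.924 CPM at 6 h. It was called higher (1.89 ± 0.48 in irld, adjusted p = 0.00233, and 1.60 ± 0.50 in N2, adjusted p = 0.00901) on 346 counts in all 30 libraries, and in N2 not without replicate 2 of 6 h (0.0522). The other carrier gene atg-3 stayed near its starting level, with 46.8 ± 4.40 CPM at 72 h, against 50.2 ± 1.82 CPM at 6 h, in irld and 54.03 ± 4.60 CPM, against 50.0 ± 2.20 CPM, in N2, neither of them called. With library size alone atg-3 was called lower in irld (−0.57, adjusted p = 0.00256) and N2 (−0.42, adjusted p = 0.0195). The gene for ATG-5, the partner of LGG-3, was not called at any time in either strain, with means between 10.8 and 15.2 CPM in irld and 11.3 and 13.9 CPM in N2.

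ATG-4 proteases cut LGG proteins before conjugation and free them from membranes. The transcript of atg-4.1 was not called at any time, with 35.8 ± 2.81 CPM at 72 h, against 33.7 ± 3.01 CPM at 6 h, in irld and 32.3 ± 1.94 CPM, against 30.8 ± 1.35 CPM, in N2. The scarcer atg-4.2 had 7.13, 8.38 and 7.05 CPM at 72 h in irld, against 9.91, 7.16 and 6.93 CPM at 6 h. The corresponding N2 levels were 7.99, 11.2 and 7.39 CPM, against 5.00, 6.22 and 6.26 CPM. It was higher at 72 h in N2 (0.60 ± 0.21, adjusted p = 0.0218) and not called in irld (−0.09 ± 0.21, adjusted p = 0.77). The N2 call was lost without replicate 1 of 6 h (0.0650) or replicate 2 of 72 h (0.175), and the ratio of atg-4.2 to atg-4.1 did not pass its test (0.18 higher at 72 h, exact permutation p = 0.35, adjusted 0.389). With library size alone atg-4.2 was called lower in irld (−0.54, adjusted p = 0.0327) and lost its call in N2 (0.08, adjusted p = 0.75). There atg-4.1 was called lower in irld (−0.38, adjusted p = 0.00466) and N2 (−0.46, adjusted p = 9.57e-04).

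**Figure D2:**
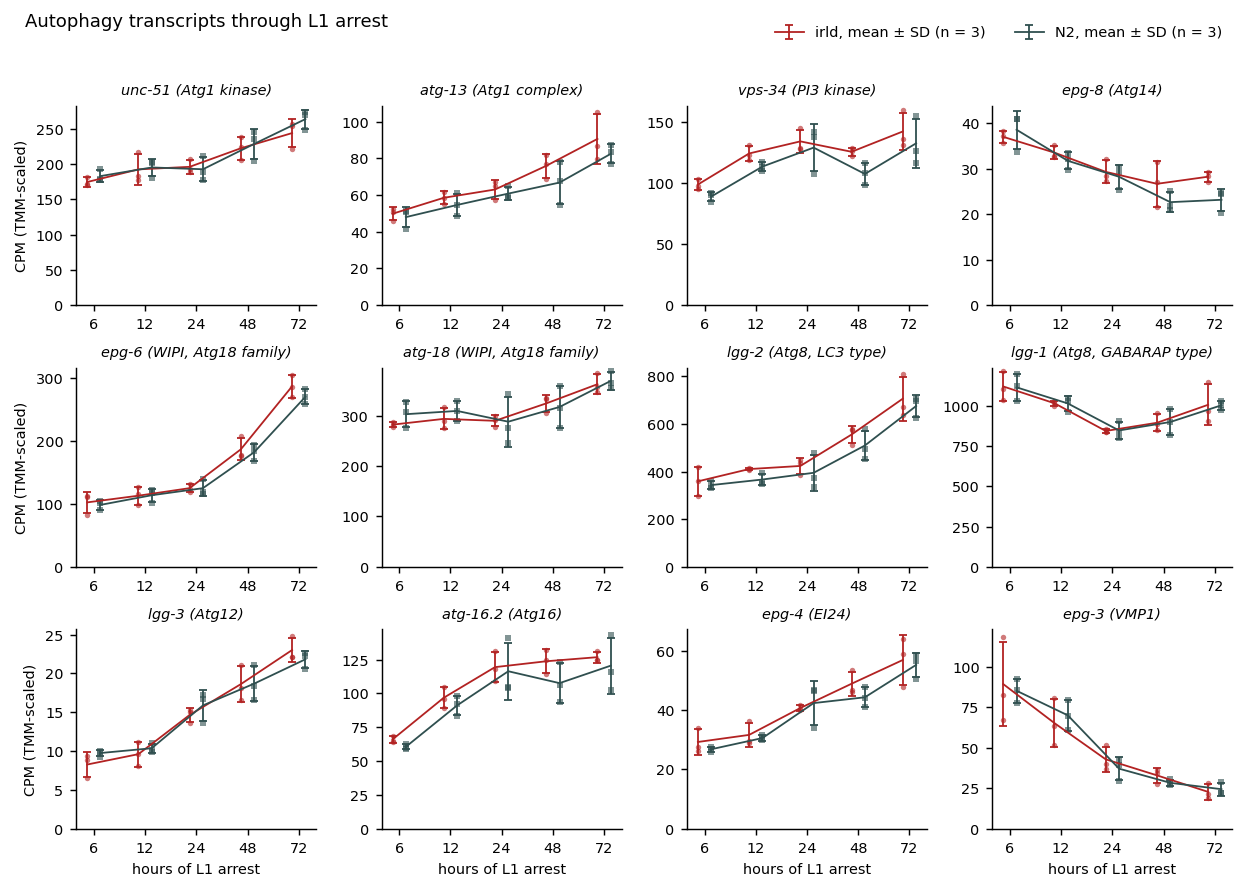
Levels of 12 autophagy transcripts in CPM on the TMM scale at 6, 12, 24, 48 and 72 h of arrest (times equally spaced), with a point for each library and the mean ± SD of 3 libraries in irld (red, left of each pair) and N2 (dark, right). The epg-6 mean reached 286 CPM at 72 h in irld and 269.7 CPM in N2, lgg-1 was lowest at 24 h, and epg-3 ended at 22.6 CPM in irld and 24.3 CPM in N2.

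Of the later steps, EPG-3 (VMP1) and EPG-4 (EI24), membrane proteins of the endoplasmic reticulum that act when autophagosomes mature, went opposite ways. The epg-3 transcript fell more than any other autophagy gene, to 28.02, 18.7 and 21.2 CPM at 72 h in irld, against 67.2, 82.3 and 118 CPM at 6 h. At 72 h N2 held 22.01, 22 and 28.9 CPM, against 77.5, 85.5 and 92.2 CPM at 6 h. The means fell at each successive time in both strains, the 72 h and 6 h libraries did not overlap, and the change was −1.98 ± 0.21 in irld (adjusted p = 4.08e-08) and −1.81 ± 0.21 in N2 (adjusted p = 1.24e-07). The epg-4 transcript rose at each successive time to 58.9, 64.2 and 47.8 CPM at 72 h in irld, against 34.1, 26.1 and 27.6 CPM at 6 h. N2 larvae had 58.6, 56.6 and 50.7 CPM at 72 h, against 25.9, 26.9 and 27.5 CPM at 6 h. Its change was 0.96 ± 0.14 in irld (adjusted p = 2.95e-06) and 1.04 ± 0.14 in N2 (adjusted p = 7.43e-07). EPG-5, which tethers autophagosomes to lysosomes, had a transcript level of 179.9 ± 35.8 CPM at 72 h, against 133 ± 6.70 CPM at 6 h, in irld and 159.9 ± 44.4 CPM, against 125 ± 24.6 CPM, in N2. It was not called (0.43 ± 0.20 in irld, adjusted p = 0.0872; 0.36 ± 0.20 in N2, adjusted p = 0.149), and passed in irld without replicate 3 of 72 h (0.0407), with the replicate number as a block (0.41, adjusted p = 0.0388) and with upper quartile scaling (0.53, adjusted p = 0.0277).

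The cargo genes and the regulator were not called at any time on the TMM scale. SQST-1, the worm p62, is a receptor for ubiquitinated cargo. Its transcript averaged 739.5, 1062, 776, 828 and 934 CPM at 6, 12, 24, 48 and 72 h in irld and 751, 1096, 834, 728 and 909 CPM in N2. The 12 h mean was the highest in each strain, but the spread between replicates was large and the 12 h change did not pass (0.52 ± 0.23 in irld, adjusted p = 0.208, and 0.55 ± 0.23 in N2, adjusted p = 0.161). Relative to lgg-1 in the same library, sqst-1 was 0.47 log2 units higher at 72 h than at 6 h (0.52 in irld, where the times overlapped, and 0.42 in N2; exact permutation p = 0.01, adjusted 0.0167). The call was lost when the libraries were taken in pairs of one replicate number, with sign flips of the 6 differences (exact adjusted p = 0.0781). EPG-2 is a scaffold for the removal of germ granule proteins in embryos. Its transcript had 198, 158 and 249 CPM at 72 h in irld, against 114, 256 and 277 CPM at 6 h. In N2 it had 209.7, 178 and 168 CPM at 72 h, against 227, 238 and 191 CPM at 6 h, so the times overlapped in both strains. The hlh-30 transcript had 373, 369.8 and 319 CPM at 72 h in irld, against 419, 297 and 434 CPM at 6 h. In N2 it stood at 459, 378 and 368 CPM at 72 h, against 379.9, 391 and 377 CPM at 6 h. Its times overlapped in both strains, with changes of −0.11 ± 0.16 in irld (adjusted p = 0.58) and 0.07 ± 0.16 in N2 (adjusted p = 0.745). With library size alone, hlh-30 was called lower at 72 h in irld (−0.58, adjusted p = 0.00211) and N2 (−0.46, adjusted p = 0.0100). There epg-2 was called lower in N2 (−0.76, adjusted p = 0.0221). HLH-30 is known to act by moving into the nucleus, which a transcript level does not record.

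Some libraries stood out for the same genes. In irld at 6 h, replicate 1 had less sqst-1 (537 CPM, against 854 and 828 CPM in the other libraries), bec-1 (10.3 CPM, against 23.2 and 20.7 CPM) and epg-2 (114 CPM, against 256 and 277 CPM). In N2 at 24 h, replicate 2 had more sqst-1 (1221 CPM, against 691 and 590.3 CPM), bec-1 (31.6 CPM, against 13.5 and 13.3 CPM), epg-2 (237 CPM, against 135 and 154 CPM) and atg-7 (117 CPM, against 58.1 and 57.7 CPM). These genes and libraries were picked out after their values were seen. What set those libraries apart was not tested.

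Genes next to the core machinery were mixed. For comparison, 20.6% of all tested genes were higher and 26% lower at 72 h in irld, and 23.1% higher and 27.9% lower in N2. Of 9 further autophagy genes found in the table, 4 were higher at 72 h in each strain and none was lower. The mitophagy receptor gene dct-1 averaged 379 ± 66.4 CPM at 72 h, against 128 ± 33.6 CPM at 6 h, in irld and 380.2 ± 18.8 CPM, against 123 ± 7.95 CPM, in N2 (log2 change 1.57 ± 0.17 in irld and 1.63 ± 0.17 in N2), and ikke-1, the relative of the kinase TBK1, changed by 1.51 ± 0.17 in irld and 1.64 ± 0.17 in N2. The other risers were pdr-1, the parkin gene, and mtm-3, which encodes a myotubularin-type phosphatase. Of 12 genes for fusion with lysosomes, 6 were higher in irld and 5 in N2, and 1, vps-18, was lower in each. The SNARE genes vamp-7 (1.41 ± 0.13 in irld and 1.64 ± 0.13 in N2) and snap-29 (0.85 ± 0.16 and 0.94 ± 0.16) rose, as did the small GTPase gene rab-7 (0.63 ± 0.15 and 0.76 ± 0.15), while the SNARE gene syx-17 was not called.

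Of 17 genes of the lysosomal membrane and lumen, 3 were higher and 5 lower in irld, 4 higher and 5 lower in N2, with a median change of −0.12 in irld and −0.05 in N2, beside the −0.13 in irld and −0.11 in N2 of all genes. The shares of all tested genes were 20.6% higher and 26% lower in irld and 23.1% higher and 27.9% lower in N2. The chloride channel gene clh-6 rose (0.97 ± 0.20 in irld and 0.92 ± 0.20 in N2), and the cation channel gene cup-5, which encodes the worm mucolipin, fell (−0.88 ± 0.25 in irld and −0.90 ± 0.25 in N2). Larger falls were those of spin-2 (−3.72 ± 0.62 in irld and −3.93 ± 0.63 in N2), spin-3 (−2.14 ± 0.52 and −2.43 ± 0.52) and slc-36.1 (−1.09 ± 0.28 and −1.61 ± 0.28). These genes were scarce at 72 h, with irld means of 1.39, 0.887 and 4.43 CPM. The largest rise was that of ncr-2, a Niemann-Pick C1 homolog, at 31.7 ± 3.34 CPM at 72 h, against 1.74 ± 0.579 CPM at 6 h, in irld and 27.6 ± 8.77 CPM, against 2.17 ± 0.202 CPM, in N2. Of 8 genes linked to HLH-30, 3 were higher and 1 lower in irld, 4 higher and 2 lower in N2. Among them the lipase gene lipl-5 rose (2.40 ± 0.53 in irld and 2.72 ± 0.53 in N2) and mxl-3, which encodes a repressor of lipase genes, fell (−1.56 ± 0.60 in irld and −1.48 ± 0.60 in N2). The lipase genes did not move together. The lipl-1 transcript was lower in N2 (−1.80 ± 0.58, adjusted p = 0.0119) and not called in irld (−1.32 ± 0.56, adjusted p = 0.0588). Neither lipl-2 nor lipl-3 was called. Of 3 genes for assembly of the pump, rbc-1 rose (0.78 ± 0.19 in irld and 0.80 ± 0.19 in N2) and rbc-2 fell (−0.59 ± 0.18 in irld and −0.73 ± 0.18 in N2), both of them rabconnectin-type genes, and eak-7 was not called.

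The soluble V1 part of the pump fell early and stayed low: 6 of its 9 genes were lower at 72 h in both strains. Its summed level, over the 9 genes, averaged 3114, 2414, 1792, 1639 and 1632 CPM at 6, 12, 24, 48 and 72 h in irld and 3139, 2266, 1695, 1600.5 and 1553 CPM in N2. The catalytic A subunit gene vha-13 had 425, 452 and 365 CPM at 72 h in irld, against 998, 760.0 and 954 CPM at 6 h. N2 libraries had 393, 389 and 411 CPM at 72 h, against 962, 973 and 867 CPM at 6 h. The B subunit gene vha-12 fell furthest, to 224, 257 and 167 CPM at 72 h in irld, against 609.9, 454 and 625 CPM at 6 h. The N2 values were 192, 199 and 213 CPM at 72 h, against 632, 588 and 574 CPM at 6 h. For both genes all 72 h libraries lay under all 6 h libraries. The change of vha-12 was −1.38 ± 0.14 in irld (adjusted p = 1.19e-08) and −1.57 ± 0.14 in N2 (adjusted p = 1.19e-09), which left 38.4% of the 6 h level in irld and 33.7% in N2, and that of vha-13 was −1.13 ± 0.13 in irld and −1.23 ± 0.13 in N2.

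The stalk subunits E (vha-8) and G (vha-10) moved with them. The vha-8 transcript averaged 556, 405, 267, 255 and 261 CPM at 6, 12, 24, 48 and 72 h in irld and 545, 379.9, 256, 252 and 234.9 CPM in N2, and vha-10 averaged 263, 186, 128, 124 and 117 CPM in irld and 257, 179.8, 132, 125 and 122 CPM in N2. Most of the fall had taken place by 24 h, when vha-8, vha-10, vha-12 and vha-13 had made 89.1 to 98.2% of their 6 h to 72 h difference in irld and 92.3 to 94.0% in N2. The step from 24 to 72 h was not tested. At 12 h all 4 were already lower, with adjusted p between 0.0305 and 0.0448 in irld and between 0.00579 and 0.0193 in N2. The 12 h calls rested on single libraries: over all 48 genes 6 were made in irld without replicate 2 of 6 h, 1 without replicate 1 of 6 h or replicate 2 of 12 h, 3 without replicate 3 of 12 h, and 0 without replicate 3 of 6 h or replicate 1 of 12 h. In N2 3 were made without replicate 2 of 6 h or replicate 3 of 12 h and 4 without replicate 3 of 6 h or replicate 1 of 12 h. At 72 h 25 to 29 calls were made without a library in irld and 24 to 28 in N2.

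The remaining V1 genes fell less or were not called. Of these only vha-18 is among the 39 genes set by rule for fuller description, and vha-9, vha-11, vha-14 and vha-15, like atg-5, vha-2, vha-3, vha-16 and vha-20, are described for completeness. The C subunit gene vha-11 fell by 0.89 ± 0.12 log2 units in irld (adjusted p = 1.99e-06) and by 0.81 ± 0.12 in N2 (adjusted p = 5.32e-06), and the D subunit gene vha-14 by 0.45 ± 0.13 in irld and 0.44 ± 0.13 in N2. The F subunit gene vha-9 passed at 48 h alone (−0.42 ± 0.16 in irld, adjusted p = 0.0348, and −0.39 ± 0.16 in N2, adjusted p = 0.0477). The H subunit, which links V1 to V0, has 2 genes. The vha-15 transcript had 287, 296 and 203 CPM at 72 h in irld, against 411, 251 and 268 CPM at 6 h. For N2 the levels were 211, 218 and 267 CPM at 72 h, against 306, 285 and 289 CPM at 6 h. It overlapped between the times in irld and was not called (−0.24 ± 0.20 in irld and −0.34 ± 0.20 in N2). The other gene, vha-18, was scarce, with 1.43, 0.599 and 2.03 CPM at 72 h in irld, against 1.82, 3.00 and 1.63 CPM at 6 h. In N2 it had 0.280, 2.80 and 1.52 CPM at 72 h, against 1.61, 1.91 and 2.87 CPM at 6 h. It was not called at this depth in either strain. The ratio of vha-18 to vha-15 did not pass its test (−0.51 at 72 h, exact permutation p = 0.395, adjusted 0.395).

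**Figure D3:**
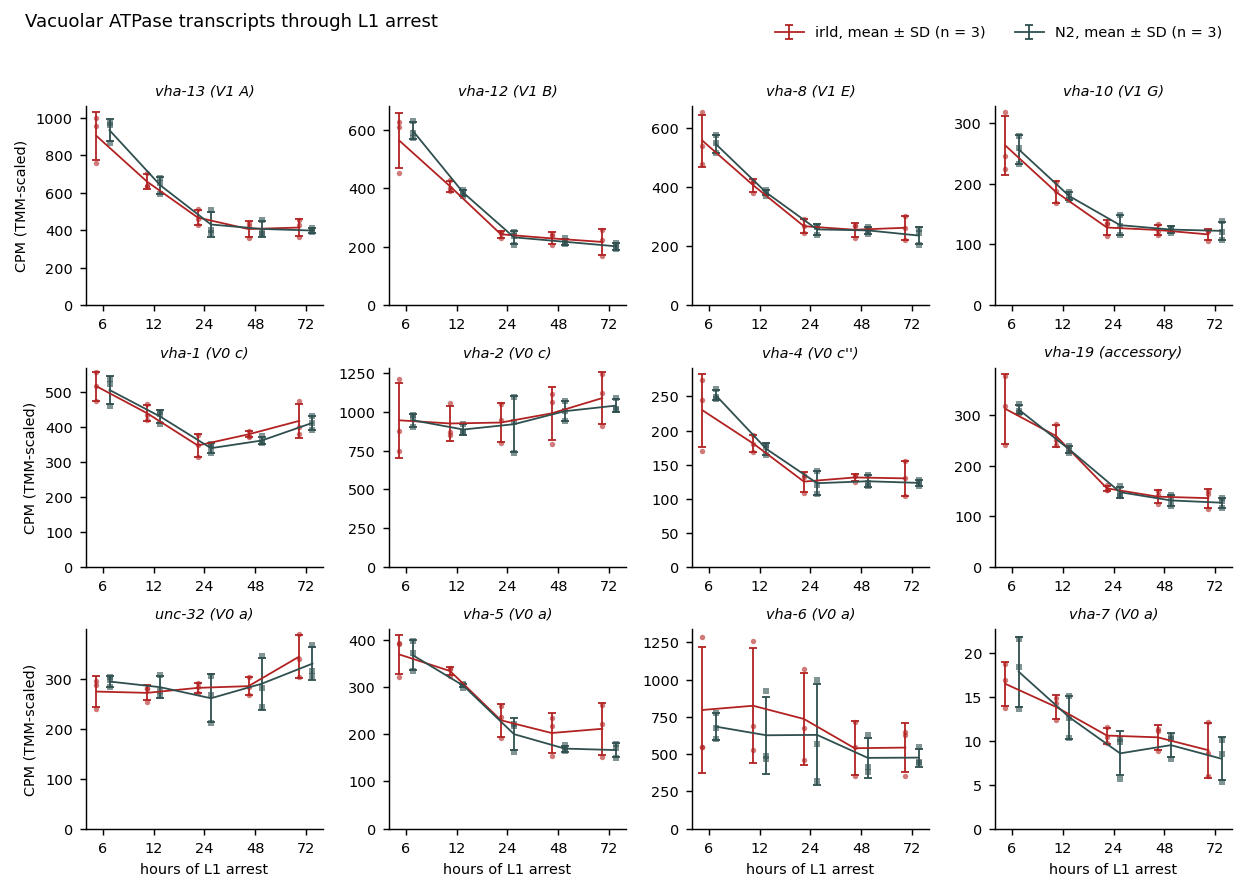
Levels of 12 V-ATPase transcripts in CPM on the TMM scale at 6, 12, 24, 48 and 72 h of arrest (times equally spaced), with a point for each library and the mean ± SD of 3 libraries in irld (red, left of each pair) and N2 (dark, right). The 4 V1 transcripts in the top row fell mostly before 24 h. The vha-2 and unc-32 means ended above their 6 h values without passing edgeR's test on this scale, and the vha-6 points of replicate 1 reached 1288 CPM in irld.

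In the membrane V0 part and its accessory proteins, 6 of 12 genes were lower at 72 h in irld and 7 in N2. Their summed level averaged 4289, 4040.2, 3483, 3311 and 3525 CPM at 6, 12, 24, 48 and 72 h in irld and 4199, 3677, 3251, 3165 and 3284 CPM in N2. The largest called fall was that of vha-19, which encodes the accessory protein related to mammalian Ac45, to 144, 149 and 115 CPM at 72 h in irld, against 379, 242 and 318 CPM at 6 h. The corresponding N2 levels were 116, 136 and 129 CPM, against 305, 322 and 308 CPM. The times did not overlap, and the change was −1.20 ± 0.14 in irld (adjusted p = 8.78e-08) and −1.30 ± 0.14 in N2 (adjusted p = 2.24e-08). The second accessory gene, vha-20, a relative of the mammalian prorenin receptor, was not called (−0.31 ± 0.16 in irld, adjusted p = 0.118, and −0.33 ± 0.16 in N2, adjusted p = 0.0916). The e subunit gene vha-17 had 89.6 ± 19.8 CPM at 72 h, against 154 ± 38.2 CPM at 6 h, in irld and 79.5 ± 6.47 CPM, against 155 ± 10.4 CPM, in N2 (−0.79 ± 0.16 in irld and −0.96 ± 0.16 in N2). The d subunit gene vha-16 was lower at 24 and 48 h in both strains and at 72 h in N2 (−0.36 ± 0.13, adjusted p = 0.026; −0.25 ± 0.13 in irld, adjusted p = 0.13). Its 72 h call in N2 was lost with upper quartile scaling and without the filter on low counts.

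The proteolipid ring, through which protons pass, is built from c subunits, and its genes did not move together. The c'' gene vha-4 had 129.7, 155 and 104 CPM at 72 h in irld, against 274, 170.0 and 245 CPM at 6 h. In N2 it had 118, 128 and 124 CPM at 72 h, against 247, 249 and 260.2 CPM at 6 h. The changes were −0.82 ± 0.15 in irld (adjusted p = 7.84e-05) and −1.03 ± 0.15 in N2 (adjusted p = 3.57e-06). The c gene vha-1 dipped and came part of the way back, with means of 515, 438, 346, 378 and 416 CPM at 6, 12, 24, 48 and 72 h in irld and 505, 429, 339, 360.3 and 411 CPM in N2. It was −0.57 ± 0.11 at 24 h in irld (adjusted p = 1.79e-04) and −0.58 ± 0.11 in N2 (adjusted p = 1.31e-04), and −0.31 ± 0.10 at 72 h in irld (adjusted p = 0.0183) and −0.30 ± 0.10 in N2 (adjusted p = 0.0205). The 72 h call was lost in irld without replicate 1 or 3 of either time (adjusted p 0.0708 to 0.0949) and in N2 without replicate 2 or 3 of 6 h or replicate 1 or 2 of 72 h (0.0514 to 0.173).

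The c gene vha-2 lies next to vha-1 on the same strand of chromosome III (9782164 to 9783224, after vha-1 at 9781254 to 9781763, in Ensembl's WBcel235 annotation). No fall was called: it had 1119, 1242 and 907 CPM at 72 h in irld, against 1214, 744 and 879 CPM at 6 h. At 72 h N2 held 1019, 1011 and 1091 CPM, against 901, 958 and 980.4 CPM at 6 h. The irld times overlapped, and no change was called (0.20 ± 0.17 in irld, adjusted p = 0.337, and 0.14 ± 0.17 in N2, adjusted p = 0.521). Of its exon length 22.7% overlaps another gene on the same strand, so its counts are uncertain to that extent. The near-identical gene vha-3 drew 146 counts in all 30 libraries, with means of 0.365 ± 0.312 CPM at 72 h, against 0.965 ± 0.174 CPM at 6 h, in irld and 0.212 ± 0.0818 CPM, against 0.519 ± 0.216 CPM, in N2. It was called lower at 48 h only, and how the counting dealt with reads shared by the 2 genes bears on that level. The ratio of vha-3 to vha-2 changed by −1.42 log2 units between 6 h and 72 h (exact permutation p = 0.005, adjusted 0.01), and by −0.48 with a pseudocount of 5, which did not pass (adjusted p = 0.0688 by the exact test).

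The a subunit anchors V1 to the membrane, and its 4 genes are known from different tissues: unc-32 broadly and in neurons, vha-5 in the excretory canal and epidermis, vha-6 in the intestine and vha-7 in the epidermis. The vha-5 transcript fell to 222, 261 and 152 CPM at 72 h in irld, against 392, 323 and 394 CPM at 6 h. In N2 it fell to 179, 150.5 and 170.2 CPM at 72 h, against 398, 373 and 335 CPM at 6 h (−0.80 ± 0.17 in irld, adjusted p = 4.16e-04; −1.14 ± 0.17 in N2, adjusted p = 5.23e-06). The scarce vha-7 fell to 12.2, 8.62 and 5.98 CPM at 72 h in irld, against 18.7, 13.8 and 16.98 CPM at 6 h. The N2 libraries fell to 10.1, 8.51 and 5.28 CPM at 72 h, against 21.6, 18.4 and 13.7 CPM at 6 h (−0.89 ± 0.25 in irld, adjusted p = 0.00557; −1.17 ± 0.26 in N2, adjusted p = 4.42e-04). The times did not overlap for either gene. The unc-32 transcript stood apart from them, with 305, 391 and 339 CPM at 72 h in irld, against 239.7, 288 and 296 CPM at 6 h. The N2 libraries had 369, 307 and 317 CPM at 72 h, against 303, 298 and 283 CPM at 6 h. Every 72 h library lay above the 6 h libraries of its strain. The difference did not pass (0.33 ± 0.14 in irld, adjusted p = 0.0547; 0.17 ± 0.14 in N2, adjusted p = 0.332), was called in irld without replicate 2 or 3 of 6 h or replicate 1 of 72 h (0.0292 to 0.0384), and turned to −0.36 in N2 with library size alone. In irld a block for replicate number also gave a call (0.33, adjusted p = 0.0497), as did DESeq2-type size factors (0.35, adjusted p = 0.0354), upper quartile scaling (0.43, adjusted p = 0.00576) and DESeq2 (0.35, adjusted p = 0.0228).

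The vha-6 transcript was set apart by single libraries. It had 648, 628 and 354 CPM at 72 h in irld, against 1288, 549.5 and 551 CPM at 6 h. N2 larvae had 545, 438 and 445 CPM at 72 h, against 779, 675 and 599.9 CPM at 6 h. Replicate 1 was the highest library at every time in both strains. The difference was not called (−0.55 ± 0.43 in irld, adjusted p = 0.305; −0.52 ± 0.43 in N2, adjusted p = 0.317), and without replicate 1 of 6 h it was −0.02 in irld. With library size alone vha-6 was called lower, at −0.98 in irld (adjusted p = 0.0309) and −1.05 in N2 (adjusted p = 0.0203). Within libraries, the ratio to unc-32 changed by −1.23 log2 units between 6 h and 72 h for vha-5 and by −1.30 for vha-7 (exact permutation p = 0.005 and adjusted 0.01 for each). For vha-6 it changed by −0.74 (exact permutation p = 0.015, adjusted 0.0188), with overlapping times in irld, and by −0.61 without replicate 3 of 72 h in irld, where the call was lost (adjusted 0.0563). Per kilobase, unc-32 made up 16.4%, 15.99%, 19.1%, 23.5% and 26.5% of the 4 a genes at 6, 12, 24, 48 and 72 h in irld and 17.6%, 19.3%, 20.8%, 25.5% and 28.01% in N2, and vha-5 made up 26.1%, 23.8%, 18.5%, 19.6% and 19.2% in irld and 26.8%, 25.5%, 19.1%, 18.6% and 17.3% in N2. Throughout, vha-6 kept the largest share, between 53.7 and 61.7% in irld and 54.1 and 59.5% in N2.

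**Figure D4:**
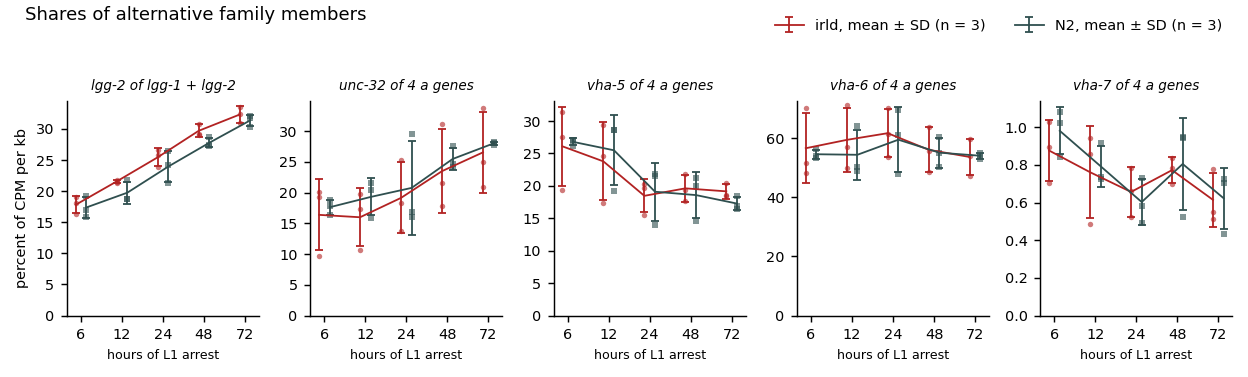
Share of lgg-2 in the summed CPM per kilobase of lgg-1 and lgg-2, and of each a subunit gene in the sum of the 4 a genes, at 6, 12, 24, 48 and 72 h of arrest (times equally spaced), with a point for each library and the mean ± SD of 3 libraries in irld (red, left) and N2 (dark, right). The lgg-2 share ended at 32.3% in irld and 31.4% in N2, and the unc-32 share at 26.5% in irld and 28.01% in N2.

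Markers of the tissues that hold these pumps moved over the same times. Beside their calls at 72 h stand the shares of all tested genes, 20.6% higher and 26% lower in irld and 23.1% higher and 27.9% lower in N2. Of the 3 excretory canal markers other than vha-5, exc-4 and pgp-12 were lower at 72 h in both strains and aqp-8 was not called, and they summed to 66.2, 51.2, 37.8, 37.03 and 37.4 CPM at 6, 12, 24, 48 and 72 h in irld and 68.1, 55.0, 34.3, 32.6 and 33.8 CPM in N2. Of 6 intestinal markers, act-5, pept-1 and elt-2 were lower and elt-7 higher at 72 h in each strain, and the 6 summed to 2414, 2045, 2219, 1856 and 1589 CPM at 6, 12, 24, 48 and 72 h in irld and 2269, 1707, 2102, 1907 and 1563 CPM in N2. Within that sum act-5 went from 1068 CPM at 6 h to 76.7 CPM at 72 h in irld and from 1097 to 65.2 CPM in N2. The largest part at 72 h, ifb-2, was not called, with 1230 CPM at 6 h and 1453 CPM at 72 h in irld and 1049 and 1439 CPM in N2. Of 6 epidermal markers 2 were lower in irld and 3 in N2. Of 6 neuronal markers 2 were higher and 2 lower in each strain, and their sum, of which egl-3 was the largest part at 72 h, averaged 1355, 1621, 2235, 2566 and 2824 CPM at 6, 12, 24, 48 and 72 h in irld and 1407, 1701, 2016, 2810.1 and 3221 CPM in N2. Within the neuronal sum egl-3 went from 592 CPM at 6 h to 2153 CPM at 72 h in irld and from 596 to 2506 CPM in N2. Of the other neuronal markers unc-10 was higher, rab-3 and unc-64 were lower, and snb-1 and ric-4 were not called, in each strain. None of these tissue markers was at 0 in a 6 h or 72 h group mean. Their part in the changes of the pump genes was not tested.

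Levels of different genes were compared per kilobase of exon. Over all 30 libraries lgg-1 was the most abundant of the 48, at 1380.1 CPM per kb, followed by vha-2 (1004) and vha-1 (811), then lgg-2 (456) and sqst-1 (384). The V1 genes vha-8, vha-10, vha-12 and vha-13 were among the 9 most abundant at 6 h, with vha-8 at 485 and vha-13 at 394 CPM per kb, as means of both strains. Members of the kinase complexes were scarcer, at 72.3 CPM per kb for unc-51 and 42.6 for vps-34. The lowest were vha-7, atg-10, vha-18 and vha-3, each under 3 CPM per kb.

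No difference between the strains was called for any of the 48 genes. The counts were 0 in irld against N2 at each of the 5 times, for the mean over the times, for strain by time and for the difference between the strains in the 6 h to 72 h change, by edgeR's quasi-likelihood test, DESeq2 and limma-voom, and 0.0% of all 15508 genes were called by edgeR in each of these. At an unadjusted p under 0.05 DESeq2 listed 815 of all genes for the mean over the times and limma-voom 743. There edgeR listed 837 of the 15508 genes and 3 of the 48. The 3 were vps-34 (0.13 ± 0.05 log2 units higher in irld), epg-8 (0.12 ± 0.06) and vha-5 (0.19 ± 0.08), the lowest adjusted p being 0.916. Where no gene differs, an unadjusted p under 0.05 is expected for a fraction of 0.05 of all genes. None of the genes listed at this limit is therefore read as a strain difference. For single contrasts the same limit listed atg-4.2 at 6 h (0.45 ± 0.21), epg-8 at 72 h (0.29 ± 0.13) and atg-4.2 for the difference in change (−0.69 ± 0.30, adjusted p = 1.00).

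How large a strain difference could have been missed varied by gene. For the mean over the times, the 95% interval lay within 0.5 log2 units of 0 for 25 of 27 autophagy genes and 18 of 21 pump genes. The others were bec-1, atg-10, vha-6, vha-18 and vha-3, whose replicates spread most or whose counts were few. For the change from 6 h to 72 h the interval lay within 1 log2 unit of 0 for 24 autophagy genes and 17 pump genes. The median strain difference was 0.02 for the autophagy genes and 0.05 for the pump genes, against 0.02 for all tested genes.

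**Figure D5:**
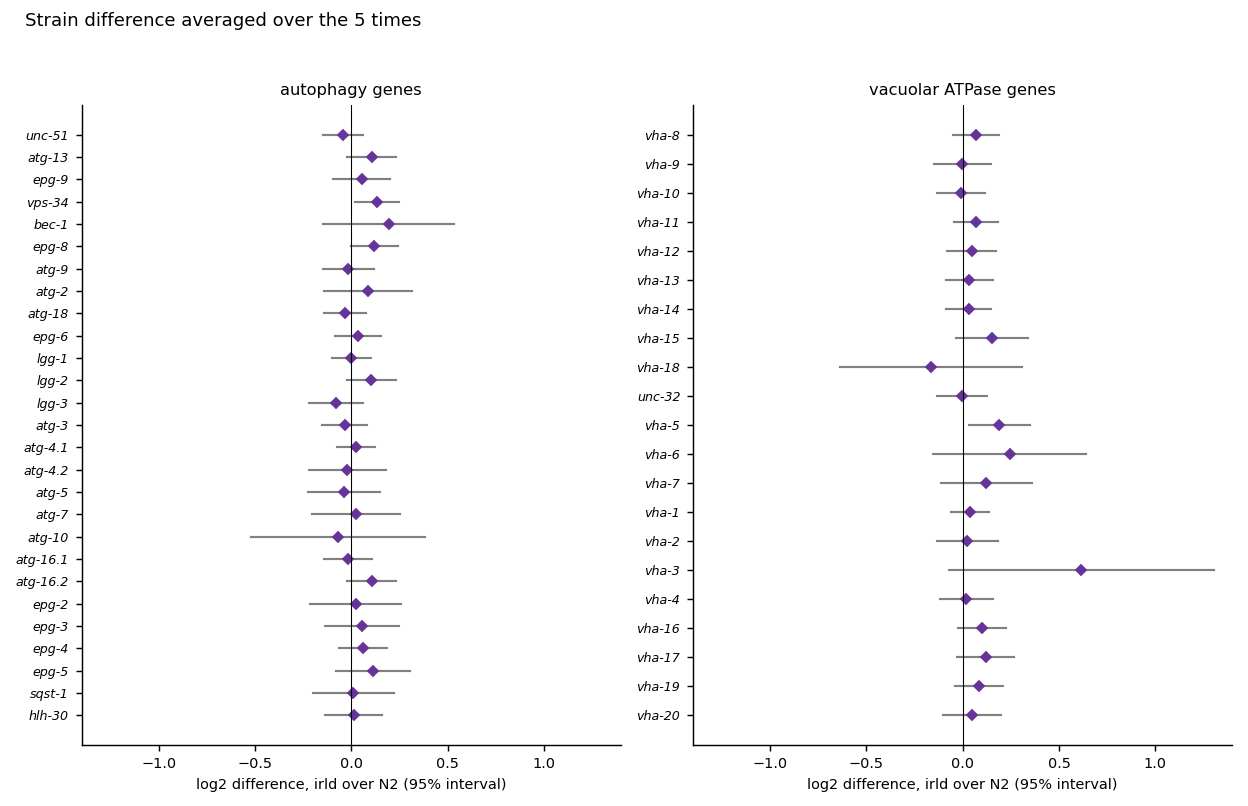
Log2 difference in transcript level of irld over N2, averaged over 6, 12, 24, 48 and 72 h of arrest, for each of the 48 genes, with its 95% interval from the standard error and 20 residual degrees of freedom, on the TMM scale. The points lie between −0.16 (vha-18) and 0.62 (vha-3), and the widest intervals belong to genes of few counts.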

How the data were processed

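Read counts per gene were deposited by the authors for 30 libraries of polyA RNA. Per the labels and the submitters' processing notes, Bowtie 1.2.2 placed the paired 50 bp reads on worm genome release WS273, to which the ERCC spike-in sequences had been added, and HTSeq 0.11.2 counted them; edgeR 3.24.4 is also named. Whether the counting used strand is not given in the sources used here. Between 35.3 and 40.7% of HTSeq's total was not aligned, 1.67 to 2.49% was ambiguous and 0.694 to 1.42% lay in no feature, and these and the 92 spike-ins were kept out of library sizes. Worm counts were 7563687 to 19815884 per library.

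From the counts, edgeR 4.0.16 in R 4.3.3 fitted all 30 libraries with 1 coefficient for each of the 10 groups (TMM, filterByExpr by group, robust quasi-likelihood), which left 15508 genes and 20 residual degrees of freedom. The script was tested on simulated data. Ratios of counts within a library used a pseudocount of 0.5 and exact permutation. Standard errors were the log2 change over the square root of F, and intervals are 95% (t quantile from scipy 1.17.1). Other scalings, no filter, DESeq2 1.42.0, limma-voom (limma 3.58.1), the replicate number as a term and omission of libraries were alternatives. Gene symbols, exon lengths and overlaps came from Ensembl's annotation of WBcel235, which is not the release the counts were made on. Fuller description was given to 39 of the 48 genes, fixed by name and by the smallest p over all times in N2 within each role, and the other 9 were described more briefly. For the 39 genes levels were given at 6 h and 72 h or at all 5 times, and for atg-9 as a range of means. The members, lists and ratios were chosen with earlier results of these data known. Libraries of one replicate number deviated together (every r above 0.1) for 12 h with 6 h in both strains and 24 h with 6 h in irld, as the data and not the labels show. Among the 48 genes, the number as a term moved the counts called there by less than 1.5 times. Over all tested genes it raised the 12 h calls from 673 to 1157 in irld and from 963 to 1550 in N2. The 24 h calls in irld went from 4747 to 5419. Replicates were separate libraries by their counts: the chi-square between replicates, divided by the number of genes, was 7.25 or more in every pair.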

Additional observations from a re-analysis of the deposited data

How the results depend on the processing

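Of the 78 changes of single genes from 6 h to 72 h (39 genes in each strain), 77 had the same direction and side of the threshold with DESeq2 and with DESeq2-type size factors, 78 with limma-voom, 69 with upper quartile scaling and 69 without a filter on low counts. The scaling decided more. With library size alone 42 held, and the reversed values were −0.11 (atg-18), −0.38 (atg-4.1) and −0.43 (epg-9) in irld and −0.24 (atg-18), −0.46 (atg-4.1), −0.46 (hlh-30), −0.36 (unc-32), −0.46 (epg-9) and −0.42 (atg-3) in N2. All of these reversed values but those of atg-18 were called lower. A further 9 changes were called lower there and not under TMM: lgg-1 and vha-6 in both strains, atg-9, atg-4.2, hlh-30 and atg-3 in irld and epg-2 in N2. The calls of 11 were lost without a reversal: unc-51, vps-34, atg-2 and atg-7 in both strains and atg-13, atg-4.2 and atg-10 in N2. With the spike-ins 23 held, and the reversed values were −0.997 (unc-51), −0.71 (atg-13), −0.91 (vps-34), −1.05 (atg-18), −0.62 (lgg-2), −0.44 (atg-16.1), −0.51 (atg-16.2), −0.86 (atg-2), −0.0618 (lgg-3), −0.50 (atg-7) and −0.55 (epg-4) in irld and −0.00918 (atg-18) in N2. Spike-in scaling also cut the calls among the 48 genes at 12, 24, 48 and 72 h to 0, 0, 15 and 10 in irld and 0, 3, 10 and 0 in N2, and over all times to 8 in irld and 3 in N2. The cause was not tested.

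The 12 h counts were the least stable: 2 in irld with DESeq2-type size factors or upper quartiles, and without the filter 0 in irld and 4 in N2. Without all libraries numbered 1, 2 or 3, an alternative chosen after seeing the data, they were 1, 0 and 0 in irld and 1, 0 and 0 in N2, and the 24 h count in irld was 13 without number 2 and 11 without number 3. Leaving out 1 library gave 0 to 6 calls at 12 h in irld and 3 to 6 in N2, and −0.26 to −0.14 for the ratio of atg-16.2 to atg-16.1 and −0.88 to −0.49 for that of vha-6 to unc-32. Of 468 omissions for single genes, 420 held and 31 lost the call. The ratio of vha-3 to vha-2 was −0.48 with a pseudocount of 5.

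Whether the replicate numbers pair the libraries is unclear. In all, 25 of 39 pairs of one number correlated above 0.1 (r −0.16 to 0.56), and 23 of 30 libraries correlated best with their own number. Not every pair did so for 72 h with 6 h (irld r −0.11 to 0.23, N2 r 0.0108 to 0.179). With the replicate block 29 genes were called at 72 h in irld and 29 in N2, 23 in irld and 28 in N2 at 24 h, 29 in each at 48 h, 6 in irld and 8 in N2 at 12 h, and 29 in each over all times. Sign flips over same-numbered libraries left the ratio of sqst-1 to lgg-1 at 0.47 without a call (exact adjusted p = 0.0781, where 0.0312 is the smallest unadjusted p possible). Depth limits vha-3, vha-18 and atg-10, whose counts are few.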
